A study of Saccharomyces cerevisiae with 6 samples.

Results

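The Rab genes of budding yeast encode small GTPases of membrane traffic, and 10 of them were examined, chosen by name and ordered by transport route, among the 5449 yeast genes measured on the arrays. All 10 were measured, each by a single probe set. The vps1 deletion strain, which the labels call Y05072, lacks VPS1, the gene of a dynamin-like GTPase that acts at the Golgi, endosomes and peroxisomes, and it was compared with the wild type strain BY4741. BY4741 is a laboratory strain of mating type a with deletions at HIS3, LEU2, MET17 and URA3; the sources used here give no other allele of either strain and do not say whether the deletion strain is a single clone. Both strains grew at 30 °C in a supplemented minimal medium, and each was represented by 3 Affymetrix arrays that the series describes as independent biological replicates. The comparison asks which transcripts differ when the dynamin is missing.

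A Rab protein is a switch that recruits its partners to a membrane when it holds GTP and is extracted from the membrane when it holds GDP. Guanine nucleotide exchange factors load it with GTP, GTPase-activating proteins end the signal, and lipid groups added to its C-terminal end anchor it. In yeast each transport step has its own Rab or small group of Rabs, and effectors such as tethers and motors read the active form. Endosomes carry the Rab5-like proteins Vps21, Ypt52 and Ypt53, which give way to the Rab7-like Ypt7 as endosomes mature and fuse with the vacuole.

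Values are log2 signals on the quantile scale, where all probe sets of the 6 arrays were brought to a single distribution. The deposited signals were higher throughout on the vps1 deletion arrays than on the wild type arrays, by a median of 0.51 (log2) over all genes. The median was 0.48 over probe sets whose names the yeast gene table lacks, and 0.51 over hybridization and other control probe sets. On the quantile scale the median difference of all genes was -0.04. A change shared by most genes cannot be seen there, and changes are relative to it. Arrays correlated over genes at 0.991 to 0.995 within the deletion strain and at 0.985 to 0.994 within wild type, which describes these arrays only. VPS1 fell in the deletion strain, at 2.54, 2.40 and 2.23 against 10.32, 9.98 and 9.95 in wild type, at least 91.5-fold lower, with every deletion array below its background level (limma adjusted p = 1.65e-07). That level was set for each array at the 95th percentile of the probe sets whose names the yeast gene table lacks. The 7 a-specific mating genes measured were above it on all arrays, with a summed signal of 20516 to 21707 (linear units) in the deletion strain and 29521 to 34171 in wild type. In the limma test described below 5 of the 7 fell, where 6.28% of all genes fell. The 4 alpha-specific genes were also above it, with a summed signal of 582 to 614 in the deletion strain and 437 to 487 in wild type. The lowest mean among the 4 was 3.95 in the deletion strain and 4.34 in wild type (log2), close to the background level of 3.53 to 3.59. In the same test 1 of the 4 rose, where 6.77% of all genes rose. Of the 4 differences 2 were above 0 and 2 below it. None of these markers was at or below background, and their part in the results below was not tested. In such bulk RNA fewer cells of a kind and less RNA per cell cannot be told apart.

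YPT53 was the Rab gene that rose in the vps1 deletion strain, and the other 9 did not pass the test. Among all 5449 genes 13.0% passed in either direction, 6.77% higher and 6.28% lower, against 1 of 10 Rab genes, so the share of the family that passed was near the background. The 10 Rab genes had a median log2 difference of -0.06, beside -0.04 over all genes, and a median absolute difference of 0.10 beside 0.18. In 8 of the 10 the absolute difference was below the median of all genes. The arrays of the strains did not overlap in 1 of 10 Rab genes, YPT53, while 33.9% of all genes had arrays that did not overlap, 15.0% higher and 19.0% lower. A fitted gene passed at a Benjamini-Hochberg adjusted p under 0.05 over all 5449 genes, in the moderated test of limma with 3 arrays per strain. As deposited, where 77.0% of all genes passed, 9 of the 10 Rab genes passed, all higher, and YPT6 did not.

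**Figure D1:**
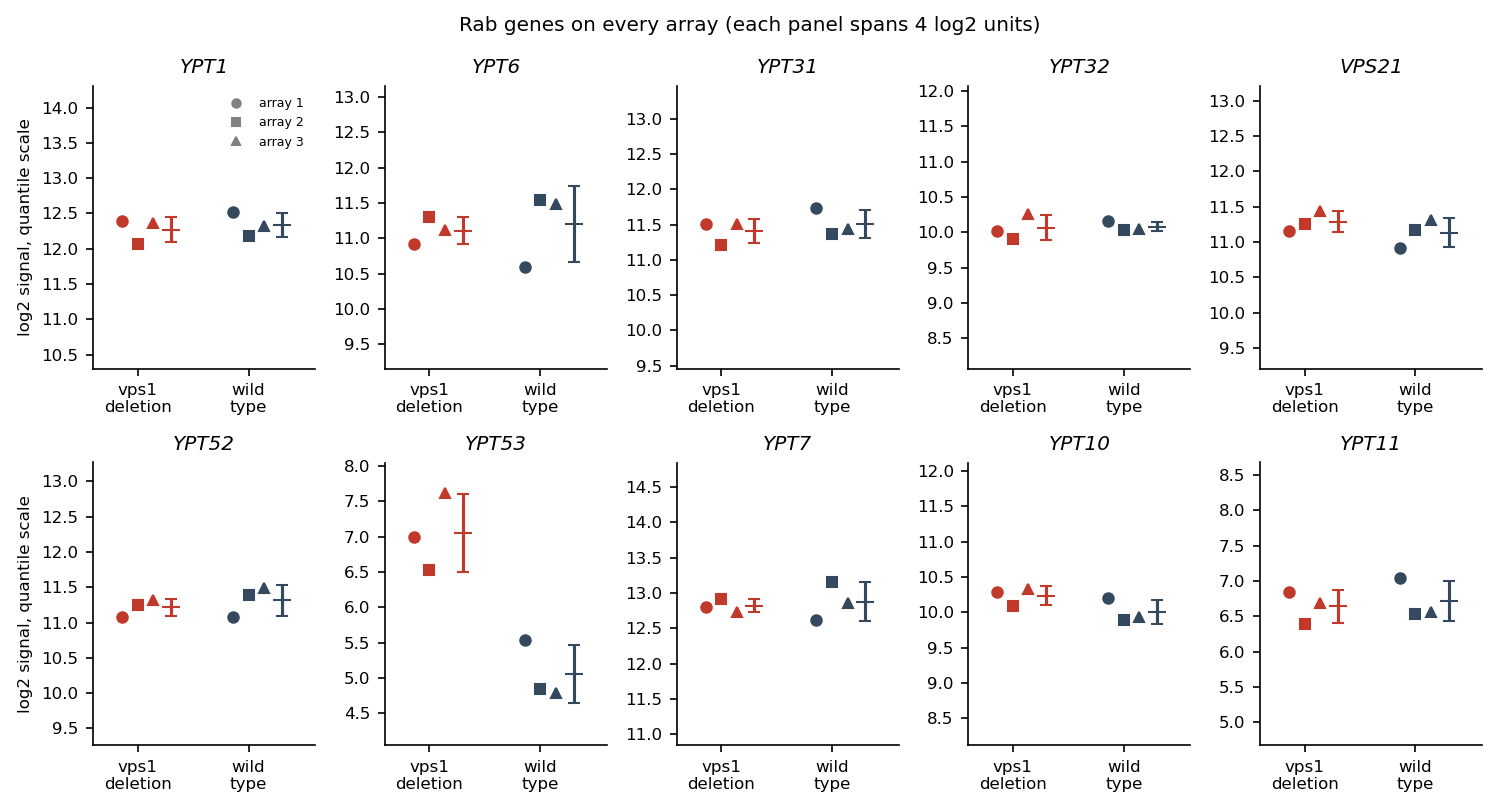
Log2 signal on the quantile scale (vertical axis) of the 10 Rab genes on each of the 3 vps1 deletion arrays (red, left) and 3 wild type arrays (dark blue, right); marker shapes give the array number, and bars give the mean and SD of a strain. Every panel spans the same number of log2 units, and YPT53 is the panel where the strains are apart, at 6.52 to 7.62 in the deletion strain against 4.79 to 5.53 in wild type.

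YPT53 belongs to the Rab5-like group of the endosome, with VPS21 and YPT52. Its signal was 6.99, 6.52 and 7.62 on the vps1 deletion arrays and 5.53, 4.84 and 4.79 on the wild type arrays. The lowest deletion array was above the highest wild type array. The rise was 1.99 ± 0.30 (log2, SE, 95% interval 1.29 to 2.69), a 3.98-fold higher level (adjusted p = 0.00570). Arrays of the same number differed by 1.46, 1.68 and 2.83, higher in 3 of 3. YPT53 was above the background level on all 6 arrays, by 3.40, 3.00 and 4.04 in the deletion strain and by 1.95, 1.31 and 1.23 in wild type. In wild type its signal was therefore low but measured.

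The size and the spread of the YPT53 rise were both large for these arrays. Its absolute difference exceeded that of 99.4% of genes, and 25 genes rose by more. The SD over arrays was 0.55 in the deletion strain, larger than for 99.2% of genes, and 0.42 in wild type, larger than for 93.9%. Deletion array 3 was the highest and deletion array 2 the lowest of its strain. Leaving out deletion array 3 gave 1.70 ± 0.26 (adjusted p = 0.0165), and leaving out wild type array 3, which gave the largest adjusted p of any alternative, gave 1.87 ± 0.35 (adjusted p = 0.0255). Over all alternatives the adjusted p lay between 3.44e-04 and 0.0255.

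VPS21 encodes the main Rab5-like protein of yeast, needed for fusion of vesicles with endosomes and for sorting of vacuolar hydrolases. Its signal was 11.16, 11.26 and 11.45 in the vps1 deletion strain and 10.91, 11.17 and 11.31 in wild type. The ranges overlap, although each deletion array was above the wild type array of the same number. The difference was 0.15 ± 0.13 (log2, SE, 95% interval -0.16 to 0.47, adjusted p = 0.498). YPT52, the third Rab5-like gene, had 11.08, 11.25 and 11.31 in the deletion strain and 11.07, 11.39 and 11.49 in wild type, ranges that also overlap. Its difference was -0.10 ± 0.13 (interval -0.41 to 0.21, adjusted p = 0.664), and 0.42 as deposited. YPT52 is on chromosome XI with VPS1, separated from it by 11 protein-coding genes in the R64 assembly.

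The change of the 3 Rab5-like genes relative to each other was compared within arrays, where a shift of a whole array cancels. Probe sets respond differently, so only the change of such a difference between strains can be read. VPS21 minus YPT53 was 3.82 to 4.73 in the vps1 deletion strain and 5.38 to 6.53 in wild type, a change of -1.84 ± 0.44 (log2, SE). YPT52 minus YPT53 was 3.69 to 4.73 in the deletion strain and 5.54 to 6.70 in wild type, a change of -2.10 ± 0.47. In neither do the strains overlap, and both differences were smaller in the deletion strain. Both changes hold the YPT53 rise of 1.99 given above, so they are not separate evidence of it. The share of other gene pairs without overlap was not counted. VPS21 minus YPT52 was 0.0013 to 0.13 in the deletion strain and -0.22 to -0.16 in wild type, a small change of 0.26 ± 0.04 without overlap. The exact 2-sided permutation p over arrays was 0.1 for each of these 3 comparisons, the smallest that 3 against 3 arrays allow, and 0.133 after adjustment over the 4 pairs compared, so none could pass.

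**Figure D2:**
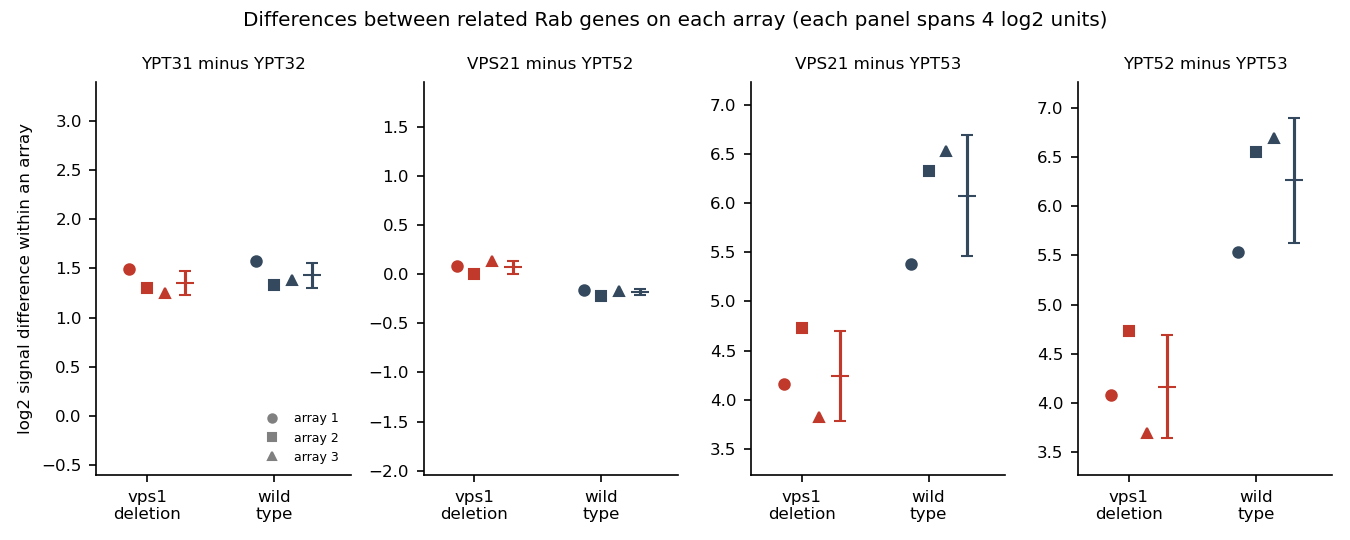
Difference of log2 signal between related Rab genes on the same array (vertical axis) for the 3 vps1 deletion arrays (red, left) and the 3 wild type arrays (dark blue, right), with mean and SD. The strains lie apart for the pairs that hold YPT53 and, by 0.26, for VPS21 minus YPT52, and they overlap for YPT31 minus YPT32.

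Exchange factors and effectors of the Rab5-like group are given because YPT53 rose; MUK1 was named by the rule for the lists, and VPS9, PEP7, VPS3 and VPS8 after their values were seen. VPS9, the main exchange factor of the group, differed by -0.09 ± 0.12 (log2, SE, adjusted p = 0.675), and by 0.47 as deposited. MUK1, a second exchange factor of the group, differed by 0.35 ± 0.16 (adjusted p = 0.209, and 0.0485 with replicate numbers as a block). The effector PEP7, an endosomal tether that binds Vps21, differed by 0.03 ± 0.10, and by -0.08 where arrays were centred on their medians. VPS3 and VPS8, the subunits of the CORVET tether that bind Vps21, differed by -0.28 ± 0.16 and 0.15 ± 0.09, and VPS3 by 0.27 as deposited. None of the 5 passed in the main fit, which was on the quantile scale without a block.

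YPT7 encodes the Rab7-like protein of the vacuole, which drives fusion of vacuoles and of late endosomes with them. Its signal was 12.81, 12.92 and 12.73 in the vps1 deletion strain and 12.62, 13.16 and 12.85 in wild type. The wild type arrays span the deletion arrays on both sides. The difference was -0.06 ± 0.15 (log2, SE, 95% interval -0.40 to 0.28, adjusted p = 0.845), and 0.50 as deposited.

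YPT1 encodes the Rab1-like protein of transport from the endoplasmic reticulum to the Golgi, which also acts in autophagy. Its signal was 12.39, 12.06 and 12.36 in the vps1 deletion strain and 12.52, 12.18 and 12.32 in wild type. The ranges overlap, with array 2 the lowest in both strains. The difference was -0.07 ± 0.13 (log2, SE, 95% interval -0.37 to 0.24, adjusted p = 0.798), and 0.45 as deposited.

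YPT31 and YPT32 encode closely related Rab11-like proteins that act in exit from the trans-Golgi and in recycling. YPT31 had 11.51, 11.22 and 11.51 in the vps1 deletion strain and 11.73, 11.36 and 11.43 in wild type, overlapping ranges with a difference of -0.10 ± 0.14 (log2, SE, 95% interval -0.41 to 0.22, adjusted p = 0.689). YPT32 had 10.02, 9.91 and 10.26 in the deletion strain and 10.16, 10.04 and 10.05 in wild type, again overlapping, with a difference of -0.02 ± 0.11 (interval -0.28 to 0.25, adjusted p = 0.935). As deposited they differed by 0.43 and 0.52. YPT31 minus YPT32 within arrays was 1.25 to 1.49 in the deletion strain and 1.33 to 1.57 in wild type, a change of -0.08 ± 0.10 (exact permutation p = 0.5, and 0.5 adjusted over the 4 pairs). No unequal change of the 2 genes was detectable with these arrays.

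YPT6 encodes the Rab6-like protein of retrograde transport from endosomes to the Golgi. Its signal was 10.91, 11.31 and 11.11 in the vps1 deletion strain and 10.59, 11.54 and 11.48 in wild type. Wild type array 1 lay about a log2 unit below the other wild type arrays, and all 3 deletion arrays lay between it and them. The wild type SD of 0.53 was larger than for 97.6% of genes. The difference of -0.09 ± 0.25 (log2, SE, 95% interval -0.68 to 0.49, adjusted p = 0.857) was the least precise of the 9, and it was 0.44 as deposited. Without wild type array 1 it was -0.40, without wild type array 2 it was 0.07, and neither passed.

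YPT10 encodes a Rab of little known function, and YPT11 a Rab that works with the myosin Myo2 to carry mitochondria and Golgi into the bud. YPT10 had 10.29, 10.09 and 10.34 in the vps1 deletion strain and 10.21, 9.88 and 9.93 in wild type. The ranges overlap through wild type array 1, while each deletion array was above the wild type array of the same number. Its difference of 0.23 ± 0.12 (log2, SE, 95% interval -0.06 to 0.52, adjusted p = 0.263) was the largest of the 9. YPT11 had 6.84, 6.39 and 6.69 in the deletion strain and 7.05, 6.54 and 6.57 in wild type, with overlapping ranges. It differed by -0.07 ± 0.18 (interval -0.48 to 0.33, adjusted p = 0.829), and by 0.57 as deposited, and lay 2.86 to 3.25 above background in the deletion strain and 3.00 to 3.46 above it in wild type.

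**Figure D3:**
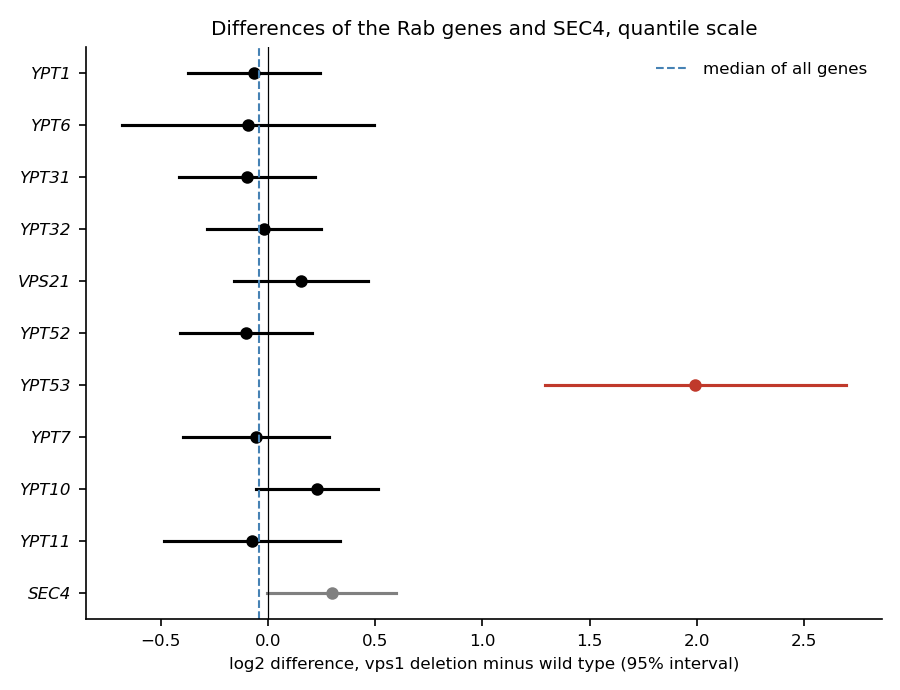
Log2 difference on the quantile scale, vps1 deletion minus wild type (horizontal axis), of the 10 Rab genes and SEC4 (grey), with 95% intervals from limma with 3 arrays per strain; the dashed line is the median of all genes. The interval of YPT53 (red) runs from 1.29 to 2.69, and those of the other 9 Rab genes all include 0 and stay between -0.68 and 0.52.

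Of the 10 differences 3 were above 0 and 7 below it on the quantile scale, and all 10 were above 0 as deposited. The 9 Rab genes other than YPT53 had absolute differences of 0.02 to 0.23 (log2), and their 95% intervals stayed between -0.68 and 0.52. A p that misses the threshold does not show that their levels were equal. SEC4, the Rab gene of exocytosis, was not among the 10. It had 12.46, 12.52 and 12.49 in the vps1 deletion strain and 11.92, 12.35 and 12.30 in wild type. The strains do not overlap, but the difference of 0.30 ± 0.13 did not pass (adjusted p = 0.176), and it lay between 0.16 and 0.38 with an array left out.

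**Figure D4:**
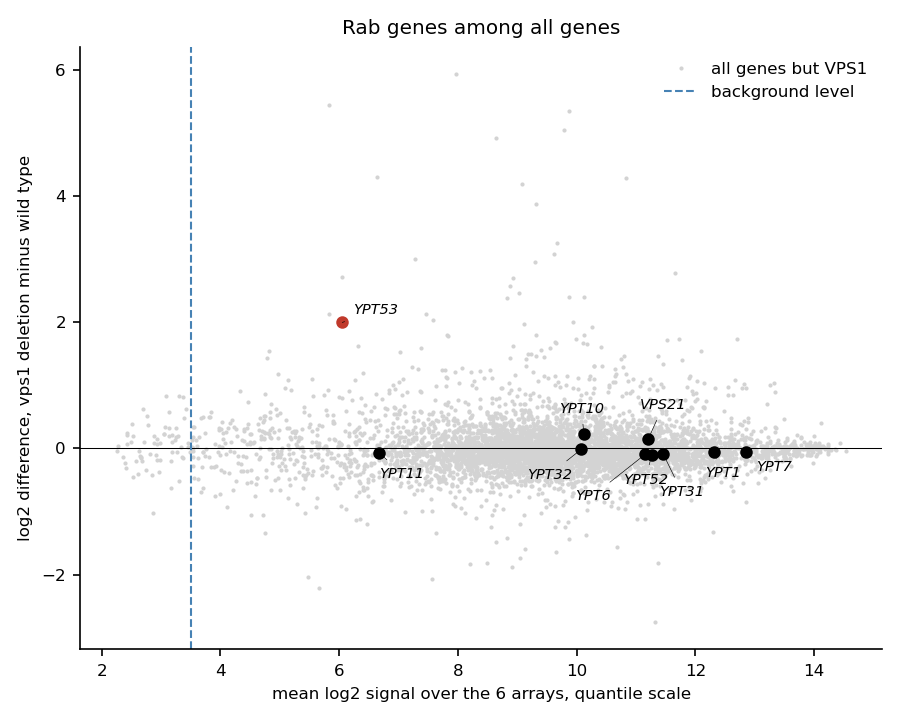
Log2 difference, vps1 deletion minus wild type (vertical axis), against the mean log2 signal over the 6 arrays (horizontal axis) for all genes except VPS1 (grey) and the Rab genes (large points); the dashed line is the background level. YPT53 (red), with a rise of 1.99, stands apart from the other 9, which lie within 0.23 of 0.

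Arrays of the same number held the same place in both strains for part of the family. Array 1 was the highest array of both strains for 2 genes, YPT1 and YPT11, and the lowest of both for 3, YPT6, VPS21 and YPT52. Array 2 was the lowest of both for YPT1, YPT31, YPT32, YPT10 and YPT11, and the highest of both for YPT6 and YPT7. Array 3 was the highest of both for VPS21 and YPT52. The share of all genes with such a match was not counted. The labels give both strains the replicate numbers 1 to 3. Deviations of same-numbered arrays from their strain means correlated over all genes at 0.67, 0.65 and 0.29. Differently numbered arrays gave -0.63 to 0.23, so the match was least distinct for number 3. With the number as a block the same single Rab gene passed, YPT53, with an SE of 0.24 in place of 0.30 (adjusted p = 0.00147), while 30.8% of all genes passed.

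The genes most like YPT53 over the 6 arrays were HXT5, BTN2 and BAG7, of 5384 genes above background. Likeness was the root mean square difference between profiles centred on each gene's mean, 0.26 for HXT5, 0.33 for BTN2 and 0.34 for BAG7 (log2). Since they were picked for this likeness on the same arrays, their differences and the order of their arrays follow from the choice and are given as a description. HXT5, a hexose transporter, had 7.80, 7.22 and 8.32 in the vps1 deletion strain and 6.54, 6.09 and 6.15 in wild type, with the order of arrays 3, 1 and 2 from high to low in the deletion strain that YPT53 also had. Its difference was 1.52 ± 0.27 (SE). BTN2, whose protein acts in sorting of aggregated proteins and in endosome to Golgi traffic, differed by 1.67 ± 0.12. BAG7, a GTPase-activating protein for Rho1, differed by 2.12 ± 0.22.

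No gene for an exchange factor of the Rabs, or for a subunit of one, passed on the quantile scale. Of 18 such genes measured 0 passed in that limma fit, where 13.0% of all genes passed. Of the 18, 1 had an unadjusted p under 0.05, beside 1574 of all 5449 genes. The median difference was 0.05 (log2), beside -0.04 over all genes. With the replicate number as a block 2 rose and 1 fell, where 30.8% of all genes passed. TRS85, the subunit that marks the TRAPPIII complex that activates Ypt1 in autophagy, had 8.31, 8.41 and 8.21 in the vps1 deletion strain and 8.57, 8.82 and 8.67 in wild type. The strains do not overlap. The difference was -0.38 ± 0.10 (SE, adjusted p = 0.0556), and 0.18 as deposited. TRS85 passed with the block (adjusted p = 0.0135), with arrays centred on their medians (-0.48, adjusted p = 0.0241) and without wild type array 1 (-0.43, adjusted p = 0.0401).

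GTPase-activating proteins of Rabs had the highest median of the 5 lists, 0.35 (log2) beside -0.04 over all genes, with 2 of 9 that rose and 7 that did not pass, where 6.77% of all genes rose. With the replicate number as a block 6 rose and 1 fell, where 30.8% of all genes passed, and nothing particular to the list was tested. GYP7, which acts on Ypt7, had 9.997, 10.29 and 9.91 in the vps1 deletion strain and 8.97, 9.05 and 8.86 in wild type. All deletion arrays were well above all wild type arrays, and the rise was 1.11 ± 0.12 (SE, adjusted p = 0.00158). MSB3, which acts on Vps21 and Sec4, had 8.81, 9.02 and 8.65 in the deletion strain and 8.20, 8.37 and 8.38 in wild type, and rose by 0.51 ± 0.12 (adjusted p = 0.0324). The MSB3 call was lost where any array other than deletion array 3 was left out (adjusted p 0.0541 to 0.0967), and where arrays were centred on their medians (0.0547).

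**Figure D5:**
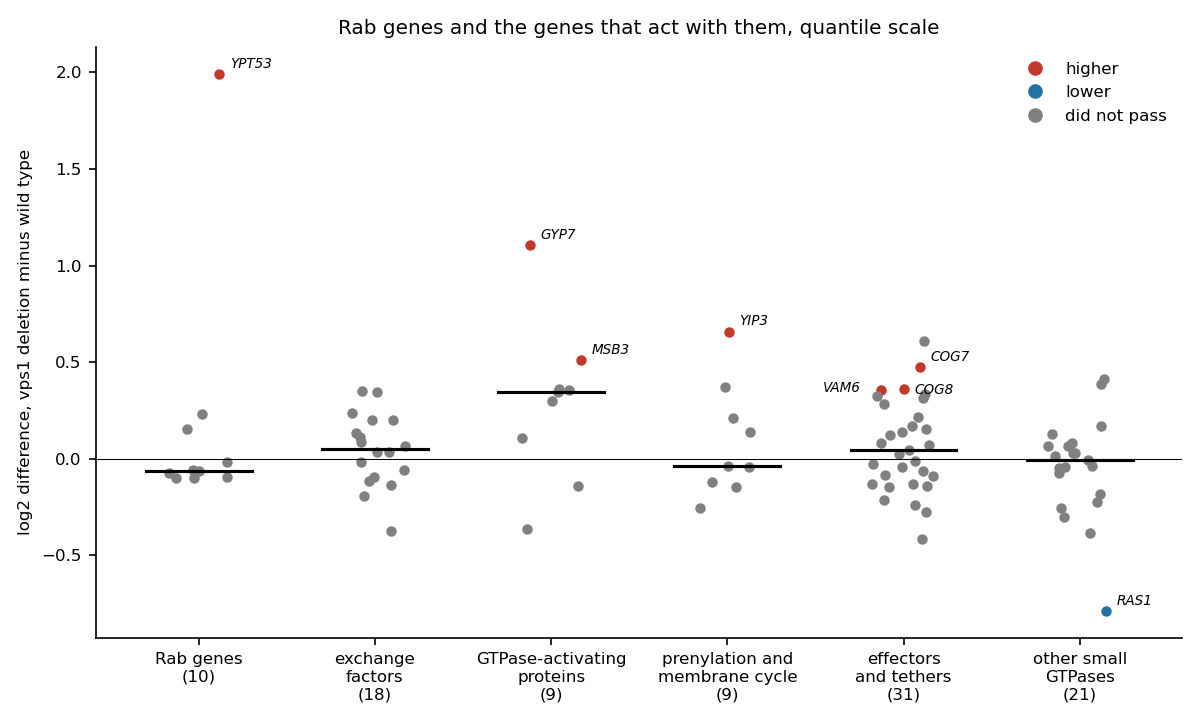
Log2 difference on the quantile scale, vps1 deletion minus wild type (vertical axis), of each Rab gene and each gene of the 5 lists (number measured in brackets); red points rose, the blue point fell, grey points did not pass, and bars are medians. YPT53 is the largest rise shown, at 1.99, followed by GYP7 at 1.11; RAS1 fell, at -0.79, and did not pass as deposited.

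Genes for prenylation and the membrane cycle of Rabs had 1 of 9 that rose, near the 6.77% of all genes that rose, with a median of -0.04 (log2). With the replicate number as a block 2 rose, where 30.8% of all genes passed. The riser was YIP3, the yeast relative of the prenylated Rab acceptor, with 12.49, 12.44 and 12.47 in the vps1 deletion strain and 11.87, 11.66 and 11.90 in wild type. The deletion arrays lay close together above all wild type arrays, and the rise was 0.66 ± 0.10 (SE, adjusted p = 0.00558). YIP5, a Golgi protein that binds Rabs, differed by 0.37 ± 0.12 (adjusted p = 0.0817, and 0.0167 with the block).

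Among effectors and tethers 3 of 31 rose and 28 did not pass, a share near the 13.0% of all genes that passed, with a median of 0.05 (log2). With the replicate number as a block 5 rose and 1 fell, where 30.8% of all genes passed. COG7 and COG8, subunits of the Golgi tether COG, rose by 0.47 ± 0.12 and 0.36 ± 0.09 (SE, adjusted p = 0.0410 and 0.0408). VAM6, the subunit of the vacuolar HOPS tether that binds Ypt7, rose by 0.36 ± 0.10 (adjusted p = 0.0494). The calls were close to the threshold: COG8 was lost with any array left out, COG7 and VAM6 with any array left out except wild type array 3, and all 3 where arrays were centred on their medians (adjusted p = 0.0993 for COG7, 0.196 for COG8 and 0.170 for VAM6).

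Small GTPases outside the Rab family had 1 of 21 that fell and 20 that did not pass, where 6.28% of all genes fell, with a median of -0.01 (log2). With the replicate number as a block 2 rose and 3 fell, where 30.8% of all genes passed. RAS1, which activates adenylate cyclase, had 10.21, 10.37 and 10.40 in the vps1 deletion strain and 11.21, 11.12 and 11.02 in wild type. The strains do not overlap. The difference was -0.79 ± 0.10 (SE, adjusted p = 0.00257) and, as deposited, -0.25 (adjusted p = 0.0503). RHO1, the GTPase of glucan synthesis and cell wall integrity signalling, differed by 0.39 ± 0.12 (adjusted p = 0.0741, and 0.0118 with the block).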

How the data were processed

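Total RNA (100 ng) of 3 vps1 deletion and 3 wild type cultures was labelled with biotin by 3' in vitro transcription and hybridised to Affymetrix yeast arrays, per the labels. The deposited values are log2 signals, 1 per probe set and array. GCOS, RMA and limma are named in the submitters' processing notes; the sources used here give no version, role or scaling between arrays. Arrays have no read depth; their number limits the precision.

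Of the probe sets 5498 were matched by Entrez ID or symbol to the R64 yeast gene table and 1746 carried names absent from it, which gave the background level, 3.53 to 3.59 by array. The highest-mean probe set stood for each of the 47 genes with several, leaving 5449 genes. All probe sets were quantile normalised over the 6 arrays, and genes were fitted with limma 3.58.1 in R 4.3.3 (lmFit, eBayes, 2-sided), with Benjamini-Hochberg adjustment over all genes. The fit was tested on simulated data.

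The Rab genes, the 5 lists of regulators, effectors and other GTPases, and the tests were chosen with earlier results of these data known. Named from the lists were members that passed, up to 4 by p, or the 2 with the smallest p where fewer than 2 passed. Deviations of same-numbered arrays correlated at 0.67, 0.65 and 0.29, and those of differently numbered arrays at -0.63 to 0.23. The replicate number therefore served as a block in an alternative. Other alternatives were the deposited values, arrays centred on medians, quantiles over yeast probe sets, genes above background and mean probe sets. The last were eBayes with the trend and robust settings, and each array left out.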

Additional observations from a re-analysis of the deposited data

How the results depend on the processing

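YPT53 rose and passed under all 13 alternatives, at 1.97 to 2.63 (log2) over those with all arrays and 1.70 to 2.27 with an array left out, and it was the single Rab gene to pass in all except the deposited values, where 9 passed. The replicate number as a block changed no Rab call; over all genes 784 rose and 892 fell with this pairing, 4142 and 52 as deposited, and 535 fell with arrays centred on their medians (256 rose). With an array left out 199 to 432 rose and 123 to 355 fell, from 369 and 342, the lowest counts of each without deletion array 3. As deposited, differences below 0 turned positive for YPT1 (0.45), YPT6 (0.44), YPT7 (0.50), YPT11 (0.57), YPT31 (0.43), YPT32 (0.52), YPT52 (0.42), TRS85 (0.18), VPS3 (0.27) and VPS9 (0.47), by the shift of whole arrays. PEP7 was -0.080 with arrays centred on their medians. With an array left out, uncalled differences crossed 0 within -0.15 to 0.039 for YPT1, -0.40 to 0.074 for YPT6, -0.19 to 0.089 for YPT7, -0.17 to 0.083 for YPT11, -0.17 to 0.012 for YPT31, -0.11 to 0.057 for YPT32 and -0.022 to 0.099 for PEP7. GYP7 and YIP3 passed under every alternative, and RAS1 under all but the deposited values. The 3 arrays per strain leave 95% intervals of the 9 other Rab genes that reach -0.68 and 0.52.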
